A study of Caenorhabditis elegans with 2 samples.

Results

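The 7000 regions described here are the middle ranks of a PHA-4 chromatin immunoprecipitation sequencing (ChIP-seq) experiment in Caenorhabditis elegans. They follow rank 3000 and run to rank 10000 among the 30000 regions of the authors' pooled list, when that list is sorted by the deposited signal from strongest to weakest. The regions were thus chosen by their signal, and signal is given below as a description with no test. They are set against the strongest regions, the top 4.95% of the same list, which are the regions of the authors' list thresholded by the irreproducible discovery rate (IDR), a procedure that keeps regions ranked alike in replicates. All 7000 middle regions therefore lie below the authors' reproducibility limit. The series holds 1 group, L4 larvae of strain OP37 with the genotype unc-119(ed3) III; wgIs37, of mixed sex and taken as whole organisms, in 2 biological replicates. The insertion is labelled as targeting pha-4 and the immunoprecipitated protein as eGFP-pha-4, with library fragments of 150 to 350 bp. There is no second genotype, stage or treatment, and an input control was used by the authors in calling regions but was not analysed here. Whole animals were used, so a region bound in few cells and a region weakly bound in many cells cannot be told apart. No read counts came with the lists, and sequencing depth is unknown.

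PHA-4 is the worm's FoxA protein, a forkhead transcription factor that gives cells of the pharynx, the feeding organ, their identity and that is also made in the intestine, rectum and somatic gonad. FoxA proteins bind a forkhead site through a winged-helix domain and can occupy sites in closed chromatin. Genes of the worm intestine are activated mainly through GATA sites, bound there by the GATA factors ELT-2 and ELT-7. The pharynx and the intestine adjoin each other in the digestive tract, and PHA-4 is expressed in both.

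In the text below a forkhead match is a T, then A or G, then TT, then G or T, then A or G, then C or T, on either strand. A GATA match is an A or T, then GATA, then A or G, on either strand, and TGATAA alone is called the strict GATA word. The windows searched were 101 bp long and centred on the summit, the position of highest signal that the authors gave for each region. The sequences that follow are such windows from middle-rank regions, read from the plus strand of ce11 in the RefSeq genome of that assembly, 5′ to 3′, with forkhead and GATA matches in capitals. They were picked by rule, as at most the 2 strongest middle-rank regions of each pharynx list and the intestine list that held either match, with no base of the 101 bp window in an annotated exon and no promoter window shared between genes. Stronger regions whose windows touched an exon, such as those of ifa-1 and pha-2, were passed over. lys-2 and elo-2 were added after the values were seen, as the strongest such intestine regions that held both a forkhead match and the strict GATA word.
myo-5, a pharyngeal myosin gene, V:8109108-8109208: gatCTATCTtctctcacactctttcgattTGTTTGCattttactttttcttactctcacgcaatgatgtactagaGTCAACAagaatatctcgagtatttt
nas-6, a pharyngeal astacin protease gene, IV:17490806-17490906: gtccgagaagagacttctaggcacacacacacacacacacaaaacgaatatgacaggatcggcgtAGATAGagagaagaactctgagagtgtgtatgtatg
pqn-63, a glutamine- and asparagine-rich protein gene, V:9615678-9615778: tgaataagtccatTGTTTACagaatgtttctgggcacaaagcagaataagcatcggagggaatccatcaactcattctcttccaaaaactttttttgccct
pha-4, V:20752306-20752406: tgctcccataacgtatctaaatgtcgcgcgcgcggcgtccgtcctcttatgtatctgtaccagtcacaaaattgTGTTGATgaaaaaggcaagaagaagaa
elt-2, the intestinal GATA factor gene, X:10480735-10480835: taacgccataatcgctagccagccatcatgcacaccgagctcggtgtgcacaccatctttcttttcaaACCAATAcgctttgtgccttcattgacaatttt
nhx-2, an intestinal sodium-proton exchanger gene, II:7694071-7694171: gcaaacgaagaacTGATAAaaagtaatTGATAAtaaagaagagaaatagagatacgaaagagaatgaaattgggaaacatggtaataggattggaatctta
lys-2, a lysozyme gene, V:10281553-10281653: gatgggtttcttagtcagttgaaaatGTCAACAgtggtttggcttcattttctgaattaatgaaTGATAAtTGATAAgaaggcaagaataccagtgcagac
elo-2, a fatty acid elongase gene, IV:17467483-17467583: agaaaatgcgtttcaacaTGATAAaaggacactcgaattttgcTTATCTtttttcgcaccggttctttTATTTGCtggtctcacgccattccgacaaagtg

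The 4 windows of the pharynx lists hold forkhead matches in 3 cases, among them TGTTTGC at myo-5 and TGTTTAC at pqn-63, which are 2 forms of the forkhead core. Because windows were picked for holding a match, this count does not give the share in those lists. Those of nhx-2 and lys-2 each hold the strict GATA word 2 times. The lys-2 and elo-2 windows carry a forkhead match beside their GATA matches, with no overlap between the matches. The window of elt-2 has a forkhead match on the minus strand and no GATA match.

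The middle regions had a median pooled signal of 10.7 (7.37 to 18.4), against 33.8 (25.9 to 226) in the strongest. What this signal is scaled to is not given in the sources used here. It passes smoothly through the limits, with 18.371 in the first middle region and 18.375 in the region before it, and with 7.373 in the last middle region and 7.372 in the region after it. The IDR limit is as smooth, with 25.942 in the last of the strongest regions and 25.936 in the next. All 7000 middle regions were 310 bp wide. The deposited −log10 q value stood at its highest value of 4.10 in 47.2% of the middle regions and in 100% of the strongest, so it does not order the stronger ones.

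Summits of the middle ranks lay in the promoter windows of protein-coding genes less often than the strongest ones. A promoter window reached from 1000 bp upstream to 200 bp downstream of an annotated transcript 5′ end. Of the middle summits, 47.1% (3296 of 7000, exact 95% interval 45.9 to 48.3%) were in such a window, against 63.7% (61.2 to 66.2%) of the strongest, and such windows make up 26.2% of the genome's bases. This difference of -16.66 percentage points had an adjusted p of 6.90e-31 in Fisher's exact test, two-sided, with adjustment over 5 locations. The difference had the same direction in the same ranks of each replicate's own list, with 43.4% against 61.8% in replicate 1 and 44.5% against 62.5% in replicate 2. Tests on regions treat each region as a unit and do not measure the spread between the 2 replicates.

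The other locations were exons, introns, non-coding RNA promoters and intergenic sequence. Exons outside promoter windows held 8.23% of the middle summits and 1.15% of the strongest (adjusted p = 7.27e-30, Fisher's exact test), although exons make up 21.5% of the bases. Introns held 13.8% of the middle summits and 8.15% of the strongest (adjusted p = 8.58e-10, Fisher's exact test). Promoter windows of non-coding RNA genes held 13.5% and 9.84% (adjusted p = 1.25e-04, Fisher's exact test). Intergenic shares were 17.3% in the middle ranks and 17.1% in the strongest, and no difference was detected (adjusted p = 0.85, Fisher's exact test). Within promoter windows the median summit lay 201 bp upstream of the nearest 5′ end in the middle ranks, with quartiles at 494 and 77 bp upstream. In the strongest it lay 188 bp upstream, with quartiles at 344 and 101 bp.

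**Figure D1:**
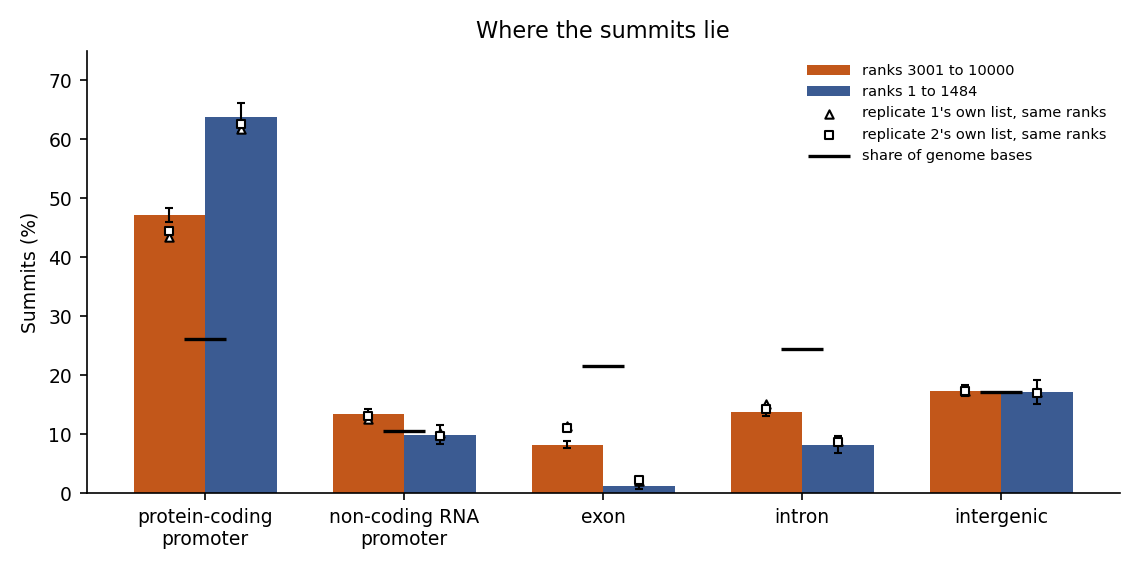
Share of summits (%) in each location, for the middle ranks (left bar of each pair) and the strongest (right bar), with exact 95% binomial intervals, which cover the counting of regions only. Black lines are the location's share of genome bases, and triangles and squares are the same ranks of replicate 1's and replicate 2's own lists. Protein-coding promoters hold 47.1% of the middle summits and 63.7% of the strongest, and exons 8.23% and 1.15%.

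Most middle regions lay far from the strongest ones. No middle summit lay within 100 bp of a strongest summit, and 386 (5.51%) lay within 1000 bp of one. The median distance to the nearest such summit was 17705 bp. Chromosome X held 22.6% of the middle regions and 20.2% of the strongest, while it makes up 17.7% of the bases and 14.7% of the bases in protein-coding promoter windows.

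The forkhead consensus was more frequent at middle summits than beside them, and less frequent than at the strongest summits. It occurred in 41.3% of the middle windows (40.1 to 42.4%), against 26.9% of windows of the same length centred 500 bp away. A match stood only at the summit in 2102 regions and only in the distant window in 1093 (adjusted p = 3.01e-71, exact binomial test, two-sided, adjusted over 12 sequences). In the strongest the share was 48.2% (45.6 to 50.8%), and the difference of -6.91 percentage points (95% interval -9.70 to -4.12) had an adjusted p of 2.01e-06 in Fisher's exact test. Over all 30000 pooled regions the share was 33.4%, and in 101 bp windows laid along the whole genome it was 25.8%. The forkhead core forms TGTTTAC and TGTTTGC occurred in 10.2% of the middle windows, against 2.89% of the windows 500 bp away, and in 17.4% of the strongest (adjusted p = 2.90e-13 against the strongest, Fisher's exact test).

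GATA matches ran the other way. They occurred in 27.1% of the middle windows (26.1 to 28.2%), against 15.0% (13.2 to 16.9%) of the strongest. The difference was 12.07 percentage points (9.91 to 14.1, adjusted p = 1.78e-23, Fisher's exact test). Windows 500 bp from the middle summits held a GATA match in 20.8%, and the summits stood above them (adjusted p = 4.73e-18, exact binomial test). At the strongest summits the share of 15.0% was below the 19.5% found 500 bp away from them. All pooled regions together had 22.5%, and windows along the genome had 19.8%.

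The strict GATA word showed a wider relative difference than the GATA forms together. The word TGATAA occurred in 15.6% of the middle windows, against 4.85% of the strongest (adjusted p = 2.86e-32, Fisher's exact test) and 9.91% of the windows 500 bp from the middle summits (adjusted p = 1.14e-23, exact binomial test). Its share was 11.7% over all 30000 pooled regions and 9.35% in windows along the genome. TGATAAG, the word followed by G, occurred in 6.46% of the middle windows, 1.75% of the strongest and 2.21% of the windows 500 bp from the middle summits. A GATA match can overlap a forkhead match, and such overlaps were present in 167 of the 799 middle windows that held both.

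Both replicates showed these differences in their own lists. In replicate 1 the strict GATA word stood in 13.9% of the middle ranks and 6.13% of the strongest, and in replicate 2 in 14.6% and 6.87%. The forkhead consensus stood in 37.3% and 46.0% of the same ranks in replicate 1, and in 37.0% and 47.4% in replicate 2. In each list the middle ranks had more GATA and fewer forkhead matches than the strongest.

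**Figure D2:**
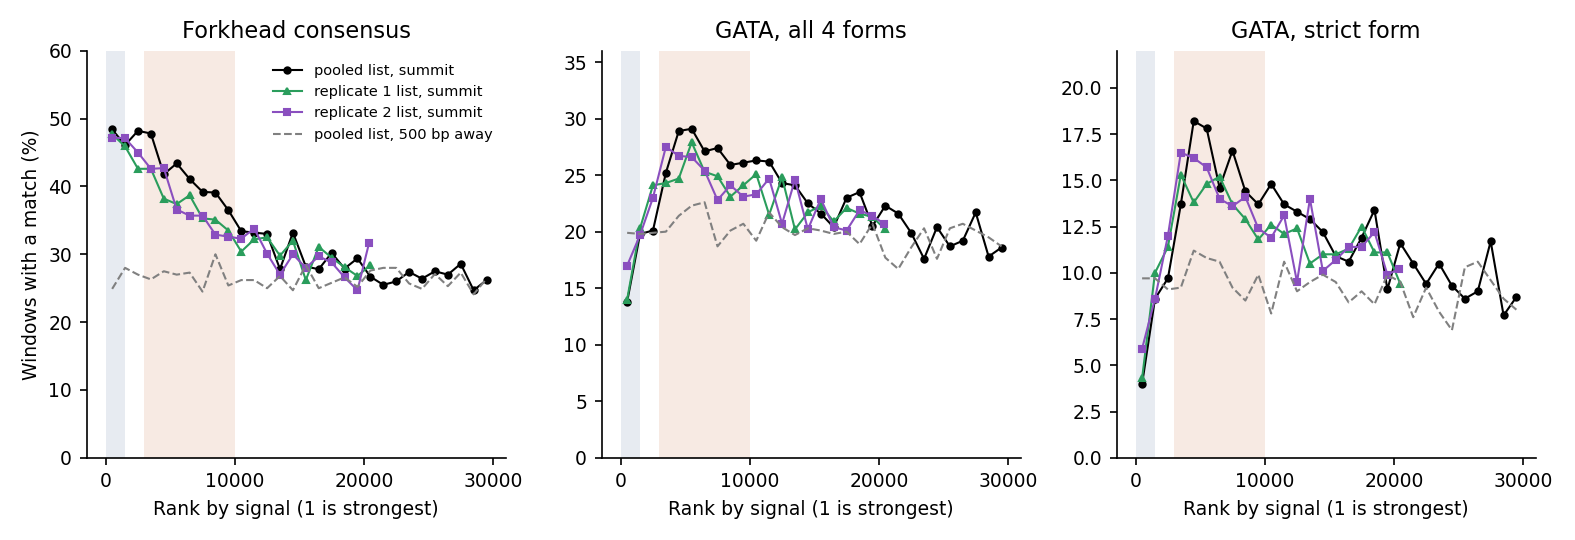
Share of 101 bp summit windows with a match (%) in successive bins of 1000 ranks, for the forkhead consensus, all 4 GATA forms and the strict form, in the pooled list (circles), replicate 1's list (triangles) and replicate 2's list (squares), with windows 500 bp away as a dashed line. The blue band marks the strongest regions and the orange band the middle ranks. The pooled forkhead share lies between 47.8% and 36.5% in the bins of the orange band, and the strict GATA share is 4% in the strongest 1000 regions and 18.2% in the 1000 regions after rank 4000.

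Along the ranks the forkhead share was 48.4% in the strongest 1000 pooled regions, 47.8% in the 1000 after rank 3000, 41.1% in the 1000 after rank 6000 and 36.5% in the 1000 after rank 9000. The strict GATA share took another course, with 4% in the strongest 1000, 9.70% in the 1000 after rank 2000, 13.7% in the 1000 after rank 3000 and 18.2% in the 1000 after rank 4000. It was still 17.8% in the 1000 after rank 5000 and 13.7% in the 1000 after rank 9000. No step was present at the lower limit, since the share was 14.8% in the 1000 after rank 10000 and 13.3% in the 1000 after rank 12000. Over all 20000 regions past rank 10000 it was 11.0%, and the forkhead share there was 28.5%.

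Base composition moved with rank. Weighting for it narrowed the GATA differences and widened the forkhead difference. The windows of the middle ranks averaged less G and C than the strongest ones in every location class, for example 40.2% against 44.7% in protein-coding promoters. With the strongest weighted to the GC content of the middle ranks, in 5 strata of the windows, the strongest had 19.6% GATA, 7.43% strict GATA and 56.7% forkhead. The middle ranks' own shares of 27.1%, 15.6% and 41.3% stayed on the same side of each. Within single strata the strict word was more frequent in the middle ranks in all 5, with unadjusted p from 1.42e-06 to 0.0466 in Fisher's exact test. In the stratum of middle GC content, for example, it stood in 15.2% of 1398 middle windows and in 5.37% of 298 strongest windows. For the 4 GATA forms together the difference passed in 3 of the 5 strata, with 38.8% against 31.4% (p = 0.259, Fisher's exact test) in the stratum lowest in GC and 12.3% against 10.3% (p = 0.247) in the highest.

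The comparison sequences put these values in proportion. GATA matches read backwards, which keep the base composition, occurred in 23.5% of the middle windows and 23.2% of the strongest, a difference of 0.29 points (-2.13 to 2.60, adjusted p = 0.84, Fisher's exact test). The forkhead consensus read backwards occurred in 31.6% and 29.6% (1.97 points, -0.63 to 4.49, adjusted p = 0.167, Fisher's exact test). Both reversed sequences were more frequent at middle summits than 500 bp away, at 20.3% and 25.4% there. Some forkhead words, such as TGTTTAT, fit the consensus again when read backwards, and reversed GATA words such as GATAGA can overlap a GATA match. How much of the rise towards summits goes with the letters alone therefore cannot be told from them. GAGAGAG occurred in 8.03% of the middle windows, 13.9% of the strongest (adjusted p = 3.03e-11, Fisher's exact test) and 1.84% of the windows 500 bp away.

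The words gathered around the summit itself. Forkhead matches came to 6.01 per 100 middle regions in each 10 bp within 25 bp of the summit, against 3.42 at 295 to 405 bp, a ratio of 1.76. The same ratio was 2.22 in the strongest. The strict GATA word had 1.83 matches per 100 middle regions and 10 bp at the centre and 1.11 at the outer distances, a ratio of 1.64. In the strongest it had 0.566 and 1.03, a ratio of 0.552, so that the word was sparser at the strongest summits than around them.

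**Figure D3:**
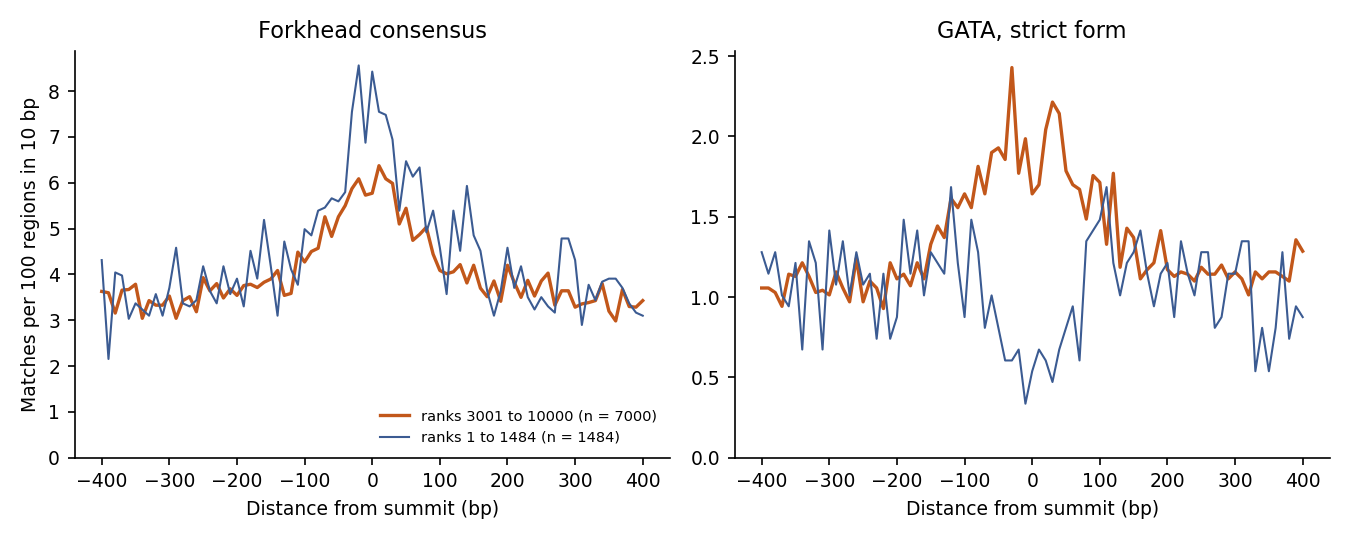
Matches per 100 regions in each 10 bp bin (vertical axis) against distance from the summit in bp (horizontal axis), for the forkhead consensus and the strict GATA form, in the middle ranks (thick orange line) and the strongest (thin blue line). The strict GATA form is raised at the centre of the middle ranks, with a ratio of 1.64 to the outer bins, and lowered at the centre of the strongest, with a ratio of 0.552.

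Forkhead and GATA matches mostly fell in different windows. Of the middle windows, 2090 (29.9%) held only a forkhead match, 1098 (15.7%) only a GATA match, 799 (11.4%) both and 3013 (43.0%) neither. The product of the separate shares gives 783 windows with both, close to the 799 found. In the strongest, 40.6% held only a forkhead match, 7.48% only GATA, 7.55% both and 44.3% neither. Median signal was alike in the 4 classes of middle regions, at 11.0 with forkhead only, 10.7 with GATA only, 10.8 with both and 10.3 with neither.

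The strict GATA share was above that of the strongest ranks in every location and on every chromosome. In protein-coding promoters it was 16.6% in the middle ranks and 4.33% in the strongest, and in intergenic sequence 18.0% and 5.91%. In introns it was 15.0% and 7.44%. By chromosome the middle ranks had 12.9% on I, 17.6% on II, 15.7% on III, 15.3% on IV, 15.9% on V and 15.8% on X, and the strongest had between 2.90% on II and 5.48% on V.

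A search of all 2080 words of 6 bases, counted on both strands, was added after these results were known. It compared the middle ranks with the strongest by Fisher's exact test with adjustment over all words. In the middle ranks 278 words (13.4%) were more frequent and 279 (13.4%) less frequent at an adjusted p under 0.05. Among the more frequent words TGATAA had the smallest p (15.6% against 4.85%, adjusted p = 2.48e-30, Fisher's exact test). CTGATA (7.73% against 2.09%) and CTTATC, whose reverse complement is GATAAG (9.56% against 3.50%), came next, and both overlap TGATAA by a shift. Of the 278 words, 135 had at most 1 G or C, 43 were more frequent at middle summits than 500 bp away, and 6 were so by at least 1.5-fold. These 6 were TGATAA, its shifted forms CTGATA as well as GTGATA and also GATAAC, then CTTATC and finally ATAAGG, which overlaps the reverse complement of CTTATC by a shift. The words less frequent in the middle ranks were led by CGTCTC (8.61% against 20.7%) and GACGCA (7.46% against 17.7%), both rich in G and C.

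Promoter windows of 3404 protein-coding genes held a middle-rank summit, which is 17% of 19973 genes. Those of 1246 genes, or 6.24%, held a strongest summit. Both kinds of summit stood in the windows of 202 genes, which is 5.93% of the genes with a middle summit and 16.2% of the genes with a strongest one. These shares are close to the 6.24% and 17% of all genes, so the overlap was near that given by the separate shares. Of the 3404 genes, 3017 (88.6%) had no summit of the first 3000 ranks in the window. Most genes of any kind lacked one as well. Of all 19973 genes, only 1246 had a strongest summit and 1080 a summit between the strongest and rank 3000. The 88.6% is thus no trait of the genes with a middle summit. A summit can lie in windows of neighbouring genes, which happened for 17.4% of the middle summits in such windows and 32.1% of the strongest. Most of the genes, 2993, had a single middle-rank region, 341 had a pair and 70 had 3 or more.

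The intestine list and the 3 pharynx lists stood above the 17% of all genes in the middle ranks. Body wall muscle (20.8%) and somatic gonad (22.2%) lay above it too, by less. In the strongest, where all genes stood at 6.24%, the intestine, pharyngeal muscle and gland, epithelium and cuticle lists lay lower and the pharyngeal transcription factors higher. Their exact 95% intervals there were 0.0384 to 8.16%, 0 to 20.6%, 0.0744 to 15.3% and 4.33 to 48.1%, in that order. Each interval takes in 6.24%, so these few genes do not set the lists apart from all genes in the strongest. The lists were written by hand from knowledge of the worm with earlier results of these data known, so their counts are a description beside the share of all genes and carry no test. Genes with a gene-class name stood at 19.9% in the middle ranks and 8.15% in the strongest. Body wall muscle and somatic gonad were close to that 19.9%. The intestine list had 22 of 66 genes (33.3%, exact 95% interval 22.2 to 46.0%) with a middle summit and 1 (1.52%) with a strongest one. The pharyngeal muscle list had 7 of 16 (43.8%, 19.8 to 70.1%) and 0 of 16, where a count of 0 allows up to 18.8%. The list of pharyngeal gland, epithelium and cuticle genes had 9 of 34 (26.5%) and 1 (2.94%). Of 15 pharyngeal transcription factor genes, 4 (26.7%) had a middle summit and 3 (20%) a strongest one. In these 4 lists, 42 of 131 genes had a middle-rank summit and 5 a strongest one. In the ranks between the strongest and the middle, 7 of the 66 intestine genes had a summit, against 1080 of all 19973 genes. The pharynx lists had 2 of 16, 0 of 34 and 0 of 15 there, in the order above. Past the middle ranks the intestine stood at 39.4%, against 26.9% of all genes, and the pharynx lists at 18.8%, 32.4% and 26.7%. The higher share of intestine genes was thus not confined to the middle ranks.

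The intestine and pharynx lists held more than the share of all genes in the middle ranks of each replicate's own list, with 1 exception. The intestine stood at 36.4% in replicate 1 and 27.3% in replicate 2, against 15.6% and 16.2% of all genes. Pharyngeal muscle stood at 31.2% and 43.8%. Pharyngeal transcription factors were at 13.3% in replicate 1, under the share of all genes, and at 40.0% in replicate 2. In the strongest ranks of replicate 1's and replicate 2's own lists, pharyngeal muscle had 1 and 0 genes and the transcription factors 3 and 1. The intestine list and the gland, epithelium and cuticle list had 1 gene in each.

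**Figure D4:**
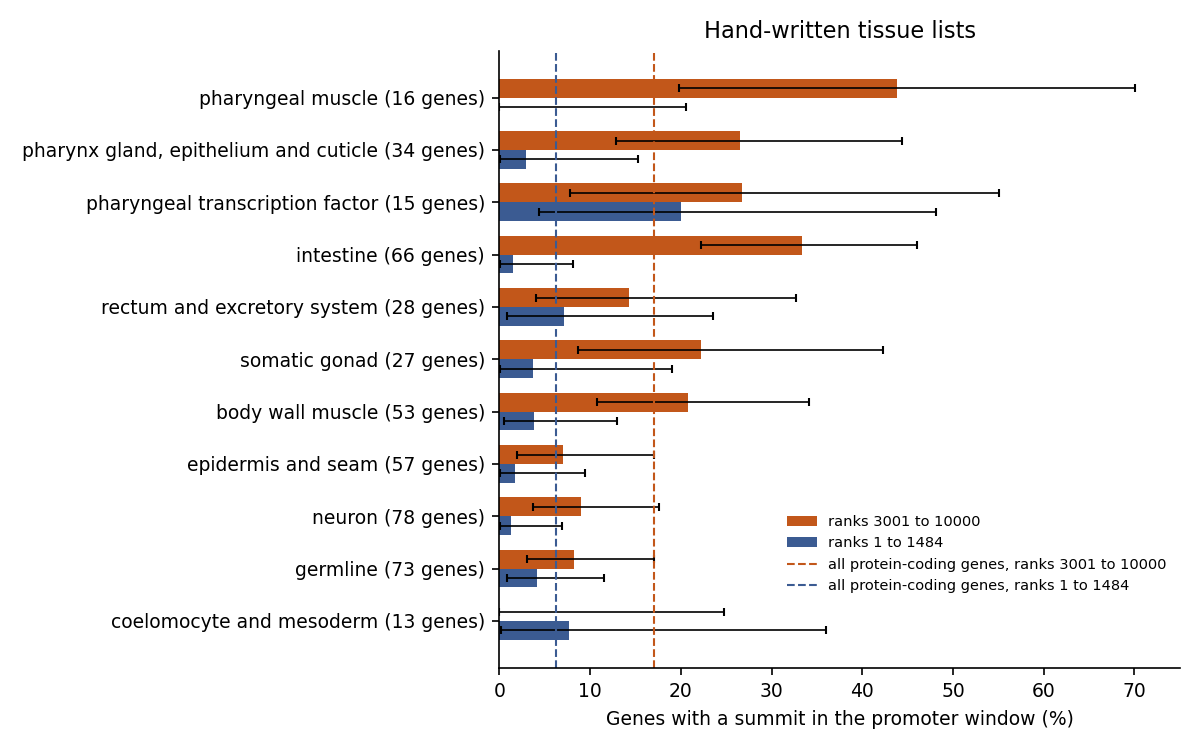
Share of genes with a summit in the promoter window (%) in 11 hand-written tissue lists, for the middle ranks (upper bar of each pair) and the strongest (lower bar), with exact 95% binomial intervals, which cover the counting of genes only. Dashed lines are the shares of all protein-coding genes, 17% and 6.24%. Pharyngeal muscle (43.8%) and intestine (33.3%) are farthest above the line of the middle ranks, while their shares in the strongest are 0% and 1.52%.

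In the pharyngeal muscle list the strongest middle region was that of myo-2, a pharyngeal myosin heavy chain gene, with a pooled signal of 18.3 (4.93 in replicate 1 and 6.42 in replicate 2). Its summit lay 399 bp upstream of the 5′ end, in an exon, and in the window of cdf-2 as well. eat-6, the alpha subunit of the sodium-potassium pump, had a signal of 18.1 (9.26 and 7.74) with the summit 596 bp upstream. myo-1, another pharyngeal myosin heavy chain gene, had 15.9, with a signal of 8.04 in replicate 2 and no summit within 150 bp in replicate 1. The other genes of that list with a middle summit were tnt-4, a troponin T gene, lev-11, the tropomyosin gene, which stands in the body wall muscle list too, myo-5 and marg-1. Their signals lay between 13.2 and 7.49.

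The list of pharyngeal gland, epithelium and cuticle genes was led by nas-6, with a signal of 17.3 (replicate 1 had 6.51, replicate 2 had 8.36) at a summit 77 bp upstream. ifa-1, an intermediate filament gene, had 15.3 (10.8 and 3.21) and abu-8 had 12.9 (6.84 and 8.73). Genes of the abu and pqn classes encode repetitive proteins, several of which build the pharyngeal cuticle, and they supply 7 of the 9 genes in this list, namely abu-1, abu-8, abu-13, pqn-2, pqn-13, pqn-54 and pqn-63. abu-1 and pqn-2 share 1 region. pqn-71 had a region of the strongest instead (34.9), and abu-10 and abu-11 had neither.

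Among the pharyngeal transcription factors, ceh-22, a homeobox gene whose product activates myo-2, had 3 middle regions in its windows, the strongest at 17.8 (4.40 in replicate 1, 9.32 in replicate 2). pha-2, a homeobox gene needed for the pharyngeal isthmus, had 13.0 (11.2 and 4.31). peb-1 and pha-4 had middle and strongest regions both. At pha-4 the strongest of 2 middle regions had a signal of 10.6 (2.78 and 7.17), and the strongest of 3 regions above the IDR limit had 60.8 (49.4 and 16.1). The tagged insertion may add copies of pha-4 sequence, and reads from it and from the gene's own locus cannot be told apart.

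The intestine list was led by elt-2, the main GATA factor gene of the intestine, with a signal of 18.0 (replicate 1 had 9.49, replicate 2 had 6.60) at a summit 455 bp upstream. asp-4, an aspartic protease gene, had 17.4 (8.08 and 8.16) and nhx-2 had 16.7 (15.6 and 3.27). Both replicates had a region at each of these 3 genes, although the values of nhx-2 lay far apart. Digestive and antimicrobial genes followed, with spp-1, a saposin-like gene, at 16.6 (6.52 and 9.41) and lys-2 at 16.6 (4.22 and 8.56). Lipid genes were represented by elo-2 (15.8, with 10.1 in both replicates), elo-5, the desaturase gene fat-6 and nhr-49, a nuclear receptor gene of fat metabolism with 4 middle regions. Structural genes were erm-1, an ezrin gene, and ifb-2 and ifo-1, which build the intestinal filament sheath. elt-7, the partner of elt-2, had a weak region of 8.29 (5.69 and 2.40). The gene with a region of the strongest was act-5, the actin of the microvilli, at 26.8 (replicates at 14 and 10.2). acdh-1 and asp-2 had neither.

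The regions at intestine genes were rich in the strict GATA word. Of the 27 middle regions in windows of the intestine list, 13 (48.1%) held TGATAA and 14 (51.9%) any GATA form, against 16.6% and 28.2% of all 3296 middle regions in protein-coding promoter windows. The forkhead consensus stood in 9 (33.3%), against 41.1%. TGATAA was at the summits of nhx-2, spp-1, lys-2, elo-2, pqm-1, nhr-49, asp-1, ugt-22, lys-8, spp-5, ifb-2, ifo-1 and elo-5. It was not at that of elt-2, elt-7 or asp-4. In the 3 pharynx lists TGATAA stood in 1 of 8, 1 of 9 and 1 of 9 regions. Any GATA form stood in 4 of the 8 regions of pharyngeal muscle, a share like that of the intestine, and in 2 of 9 and 2 of 9 in the others. The forkhead consensus stood in 3 of 8, 4 of 9 and 2 of 9. The regions of a list are few and their counts are a description.

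Lists of other tissues lay on both sides of the 17%. Somatic gonad had 6 of 27 genes (22.2%) with a middle summit, led by the nidogen gene nid-1 (16.3, with 6.99 in replicate 1 and no summit within 150 bp in replicate 2), fkh-6, a forkhead gene of the gonad (15.2, with 4.67 and 6.76), and the integrin gene ina-1 (12.3). Body wall muscle had 11 of 53 (20.8%), led by deb-1, the vinculin gene (17.1, with 9.25 and 7.27), and the actin genes act-4 (17) and act-3 (16.8). Rectum and excretory system had 4 of 28 (14.3%), among them exc-5 (16.1, with 10.9 and 5.44) and vha-1, a proton pump subunit gene (14.9, with 3.85 and 11.6). Epidermis and seam (4 of 57, 7.02%), neurons (7 of 78, 8.97%) and germline (6 of 73, 8.22%) stood at or below 9%. Coelomocyte and mesoderm had 0 of 13, where a count of 0 allows up to 23.1%. The shares in the strongest were 3.70%, 3.77%, 7.14%, 1.75%, 1.28%, 4.11% and 7.69% in the same order. Each replicate's own middle ranks moved some of these counts. The rectum and excretory list had 1 gene in replicate 1 and 5 in replicate 2 (3.57% and 17.9%), epidermis and seam 4 and 9 (7.02% and 15.8%), neurons 4 and 8 (5.13% and 10.3%), and somatic gonad 6 and 4 (22.2% and 14.8%), against 15.6% and 16.2% of all genes. Body wall muscle had 15 and 14, and germline 7 and 6.

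Among the genes with the most middle-rank regions were jun-1, an AP-1 factor gene, egl-27 and tent-5, with 5 each. Next came Y43F8B.2, lit-1, a Nemo-like kinase gene, kin-20, a casein kinase gene, F25B5.3, nhr-49 and mak-1 with 4 each, among 12 genes with 4 or more. Most of them have many annotated 5′ ends and so wide windows, 14 at egl-27 and 9 at jun-1, for example. Signals of the regions of jun-1 lay between 18.0 and 8.26, and 4 of its 5 regions overlapped a region in both replicates.

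Presence in the replicates separated the middle ranks from the strongest, as a description, because the pooled signal was made from both replicates. Of the 7000 middle regions, 4755 (67.9%) overlapped a region of both replicates' lists by at least 1 bp. A further 1163 (16.6%) overlapped replicate 1's list only, 1010 (14.4%) replicate 2's only and 72 (1.03%) neither. In the strongest the share in both was 99.4%, and past rank 10000 it was 12.3%. Within the middle ranks the share in both was 90.7% in the 1000 after rank 3000, 68.8% in the 1000 after rank 6000 and 44.4% in the 1000 after rank 9000. With summits required within 150 bp, 55.5% of the middle regions and 98.3% of the strongest were in both lists.

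**Figure D5:**
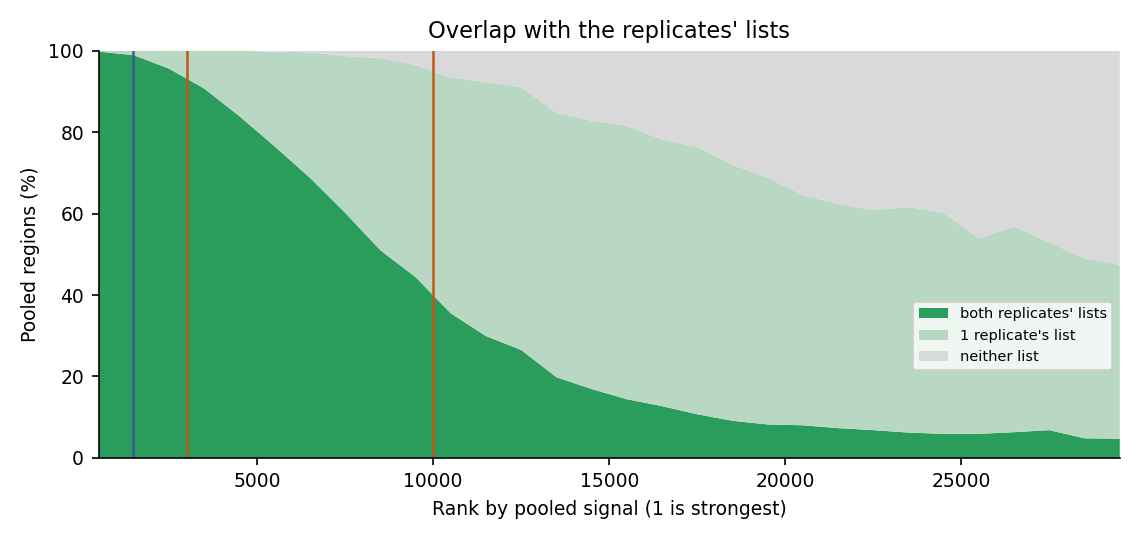
Share of pooled regions (%, vertical axis) that overlapped a region in both replicates' lists, in 1 list or in neither, by rank of pooled signal in bins of 1000 (horizontal axis). Orange lines mark the limits of the middle ranks and the blue line the IDR limit. The share in both lists is 90.7% in the 1000 regions after rank 3000 and 44.4% in the last 1000 of the middle ranks.

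Presence in both replicates was 67.9% with and 67.9% without the strict GATA word, but it was higher with the forkhead consensus (70.4%, 68.7 to 72.1%) than without it (66.2%, 64.7 to 67.6%). By location it was 70.4% (68.8 to 71.9%) in protein-coding promoters, 68.4% in non-coding RNA promoters, 66.3% in intergenic sequence, 65.9% in introns and lowest in exons, at 59.9% (55.8 to 63.9%). On the chromosomes it lay between 65.7% on IV and 69.7% on I. Rank was not held equal in these comparisons. Presence in both lists, the forkhead share and the promoter share were all lower in the last 1000 of the middle ranks than in the first 1000.

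Signals of single regions could lie far apart between replicates. In the 3886 middle regions with a summit within 150 bp in both lists, the log2 ratio of replicate 1 to replicate 2 had a median of 0.14 and an SD of 1.00 across regions, and 34.0% of the regions differed by more than 2-fold. In the strongest, 19.9% did. In the regions past rank 10000, where 1005 had a summit in both, 14.7% did. Because the regions were picked by pooled signal, a high value in one replicate goes with a lower one in the other within a narrow range of ranks, so these shares do not measure how well the replicates agree.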

How the data were processed

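Region lists in narrowPeak layout on ce11 (WBcel235) were used for 2 replicates, for both pooled and for the IDR list. The deposited signal in the seventh column has no stated scale, and the authors deposited a −log10 q value and the offset of the summit from the region's start, the other deposited value used. Per the manifests deposited with the files, each list was called against a control; the aligner, the caller and the IDR threshold are not given in the sources used here. Lists keep background regions on purpose, as IDR input. The IDR list equals the strongest 1484 pooled regions, called the strongest here, and the middle ranks are 3001 to 10000. Genes came from Ensembl release 115 and sequence from the RefSeq genome.

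The members, lists, words and tests were chosen with earlier results of these data known. Named genes were, per list, the 3 with the highest signal among genes with a middle-rank region and none of the strongest, genes with both, and the first 2 by alphabet with neither; further members were named after their values were seen. Over all genes, the 10 with most middle-rank regions were taken, of which 1 is not reported here. Sequences on chromosome I were not considered. Of the hand lists, 5 names had no match in the annotation. The labels call the 2 replicates biological. Intervals are exact 95% binomial intervals, those of differences are Newcombe intervals, and both cover counting only. Limits printed beside a count of 0 are instead 3 divided by the number of genes, and they lie somewhat below the exact upper limits. Adjusted p-values follow Benjamini and Hochberg, with a threshold of 0.05. Scripts were tested on simulated data and used SciPy 1.17.1 and NumPy 2.4.6 in Python 3.11.15, with tables in pandas 2.3.3 and plots in matplotlib 3.10.9.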

Additional observations from a re-analysis of the deposited data

How the results depend on the processing

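The location, forkhead and GATA comparisons, with 7 tested differences, kept their direction and their side of the threshold in all 68 tested alternatives, which used each replicate's own ranks, each part of the ranks, shorter and longer windows, other promoter limits, the flank on the other side, the first 3000 ranks as the reference, regions with summits in both lists and regions far from the strongest. Those for TGATAA and for the tissue lists were added after the data were seen. Weighting over 5 GC strata, which has no test of its own, moved the difference to -15.43 percentage points for forkhead, 7.5 for GATA and 8.14 for TGATAA. The share of regions in both lists was 81.8% in the middle ranks up to 6500 and 54.1% in those past 6500, 55.5% with summits within 150 bp and 55.6% with a reciprocal overlap of 50%. The middle ranks of a replicate's own list overlapped the other's list in 57.8% to 58.2%. Genes with a summit in the window numbered 2006 in the middle ranks up to 6500, 1638 in those past 6500 and 2124 when both lists had to hold the summit, with fewer regions in each. Between 5 and 6 of the 11 tissue lists stood above the share of all genes. In the ranks past 6500 the intestine had 9 genes (13.6%, against 8.20% of all genes) and pharyngeal muscle 2. Presence in both lists could not be recomputed among regions already required to be in both. The comparison covers 1 strain at 1 stage, and no paired analysis was possible because there is 1 group.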

Other observations

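Gene families taken by name, which were not written for a tissue, gave further values. Their match counts stand beside those of all 3296 middle regions in protein-coding promoter windows. Of these, 16.6% held TGATAA, 28.2% any GATA form and 41.1% a forkhead match. Regions per family are few, and the counts carry no test. Lysozymes and saposin-like genes had a middle-rank summit in 13 of 47 (27.7%) and a strongest one in 0, where a count of 0 allows up to 6.38%, and 8 of their 12 middle regions held TGATAA. In each replicate's own middle ranks only 7 of the 47 (14.9%) had a summit, under the 15.6% of all genes in replicate 1 and 16.2% in replicate 2. C-type lectin genes were rarely reached (14 of 237, 5.91%), but 5 of their 13 regions held TGATAA. UDP-glucuronosyltransferase genes had 14 of 67 (20.9%) with a GATA match of any form in 10 of 14 regions, led by ugt-50 (17.3, with 4.20 in replicate 1 and 10.8 in replicate 2). In the replicates' own middle ranks 10 (14.9%) and 13 (19.4%) of the 67 had a summit, the former under the 15.6% of all genes. Glutathione S-transferase genes had 12 of 44 (27.3%), and 9 of their 13 regions held a forkhead match. Only 7 of the 44 genes (15.9%) had a middle summit in replicate 1's own list and 6 (13.6%) in replicate 2's. Aspartic and cathepsin B-like protease genes of the asp and cpr classes had 5 of 25 (20%) and 0 of 25, with 8 in the middle ranks of replicate 1's own list and 3 in those of replicate 2's. Part of these genes stand in the intestine list too.

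Ribosomal protein genes went the other way, with 18 of 81 (22.2%) in the middle ranks (23 in replicate 1's own list, 12 in replicate 2's) and 46 (56.8%) in the strongest, and none of their 18 middle regions held a GATA match of any form. Heat shock protein genes were frequent in both, at 9 of 20 (45.0%) and 7 of 20 (35.0%). Nuclear hormone receptor genes had 58 of 269 (21.6%) and 16 (5.95%), against 19.9% and 8.15% of all genes with a gene-class name. The UDP-glucuronosyltransferase genes (20.9%) and the asp and cpr classes (20%) were near that 19.9% too. Vacuolar ATPase subunit genes had 7 of 20 (35.0%) in the middle ranks and 2 in the strongest, and 16 (80.0%) past rank 10000. Their middle-rank count was 5 (25%) in replicate 1's own list and 2 (10%) in replicate 2's. Chemoreceptor genes had 17 of 1243 (1.37%), cuticle collagens 6 of 156 (3.85%) and neuropeptide genes 4 of 140 (2.86%), all well under the 17% of all genes.

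Of 6 GATA factor genes and relatives, elt-2, elt-3 and elt-7 had a middle region and each of the 3 regions held a forkhead match and no GATA match. elt-3, which acts in the epidermis, stood at 8.29 (2.41 in replicate 1, 8.45 in replicate 2). None of the 6 had a region of the strongest. egl-27, which was looked up beside them but is not among the 6, had 5 middle regions and 1 of the strongest.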
